A study of Mus musculus with 8 samples.

Results

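Genes of the interleukin, tumour necrosis factor (TNF) and colony-stimulating factor (CSF) families were mapped over the cell types of Hepa1-6 tumours. Hepa1-6 is an established hepatoma line of the mouse. The members were the genes of the deposited table whose symbol begins with Il and a digit, with Tnfsf, with Tnfrsf or with Csf and a digit, together with Osm and Lif. Of the 43 such genes, Il7r, Il2ra, Il10, Csf3r, Tnfrsf4, Tnfrsf9, Tnfrsf18, Tnfsf8 and Tnfsf11 were left out by that rule, so 34 of the 2000 genes of the table were members. The genes were picked by name, but the rule and its exceptions were set with earlier results of these data known.

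Interleukins, TNF-family ligands and CSFs are secreted or membrane-bound proteins through which cells of the immune system and their surroundings signal to each other over short distances. Each acts through a receptor that usually has several chains, so a ligand is of use only where a neighbouring cell carries the matching chains, and antagonists and decoy receptors take up the ligand or its place without signalling. In tumours, myeloid cells are known as sources of interleukin-1 and oncostatin M, lymphocytes carry the chains for interleukin-2, interleukin-15 and interleukin-18, and fibroblasts are a known source of interleukin-6.

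The tumours came from 4 labelled groups. Tumours of unedited cells, labelled WT, were taken from animals given PBS or a PD1 antibody into the peritoneum, and tumours of Soat1-edited cells, Soat1 being a cholesterol-esterifying enzyme, from animals given the same agents. The titles call the edited tumours KO and the genotype field calls them knockdown. Whether the edited line was 1 clone, and the strain, age and number of animals, are not given in the sources used here. Each group has a cDNA and an oligo entry of droplet-based 3′ single-cell libraries. No column of the table could be tied to a group, so no genotype or treatment was compared, the table was treated as 1 pooled sample, and no p-value was computed.

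The table held 53528 cells, which the last number of the cell names divided into 6 sets of unassigned origin. The cell names carried running numbers and no barcode letters, so barcodes shared by the sets could not be counted. In set 1, unique molecular identifiers (UMIs, 1 for each captured transcript) could be recovered from the deposited values in 100% of 9370 cells, with 1001 to 261833 UMIs per cell. Further changes by the authors, including values below 0, prevent this in sets 2 to 6, so only mean deposited values are given for them, on a natural log scale. The step behind these changes is not recorded, and whether it made the sets more alike was not tested. Recurrence or lack of overlap over the sets is therefore a description, and the sets may not be independent. Levels in set 1 are summed UMIs per 1000000 UMIs of all cells of a class (CPM), with 95% Poisson intervals that cover counting error only.

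Cells were assigned to a class by marker genes that are not members, and are called T-gated, NK-gated and so on. Set 1 gave 1082 T-gated, 47 natural killer (NK)-gated, 504 macrophage-gated, 65 monocyte-gated, 93 neutrophil-gated, 84 dendritic-gated, 74 fibroblast-gated and 6090 hepatoma-gated cells after called doublets were removed, and 1210 cells stayed ungated. Summed depth ran from 168277 UMIs in NK-gated cells to 146686482 in hepatoma-gated cells, and median UMIs per cell from 1386 in neutrophil-gated to 18528 in hepatoma-gated cells. Every class had all of its markers detected and at least 2 of them among its 10 leading genes. The cells were chosen by these markers, so this describes the gates and does not check them. The sample label of liver cancer cells covered the hepatoma-gated cells, 52.4% of all cells, but not the rest. Hepatoma markers were found in every class: the summed level of 19 of them in the other 7 classes was 11.2% to 24.2% of that in hepatoma-gated cells.

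Of the 34 genes, 30 had at least 10 UMIs in the gated cells of set 1. Neutrophil-gated cells had the highest level for 8 of these 30, against a background of 10.3% of all genes tested, and NK-gated cells for 5 (background 7.71%). Fibroblast-gated cells were highest for 5 (22.8%), T-gated cells for 4 (12.3%), monocyte-gated cells for 4 (6.18%) and dendritic-gated cells for 2 (5.92%). With every cell thinned to 1000 UMIs the monocyte-gated count was 1 and the dendritic-gated count 4, and with classes taken from graph clusters the dendritic-gated count was 7. Macrophage-gated cells were highest for Tnfsf15 only (7.87%) and hepatoma-gated cells for Tnfrsf12a only (26.9%). In all, 24 of 30 members, or 80%, were highest in an immune class, against 50.3% of the 1958 genes tested. These places include ones on few UMIs. Il4, Lif and Csf2rb2 were placed in monocyte-gated cells on 1, 6 and 6 UMIs, and Il21 and Csf2 in NK-gated cells on 2 and 3. Tnfrsf22, Tnfrsf26 and Tnfsf9 were placed in neutrophil-gated cells on 5, 7 and 10. For all of these, and for Csf2rb, the ratio interval to at least 1 other class held 1. The same held for Il13, Tnfrsf13c and Tnfsf4 in T-gated cells and Tnfsf15 in macrophage-gated cells. It also held for Il4i1 in dendritic-gated and Il13ra2 in fibroblast-gated cells. On mean values Tnfsf9 and Tnfrsf22 were highest in neutrophil-gated cells in 0 of 6 sets, and Tnfrsf13c in T-gated cells in 1. The members' highest class exceeded all other gated cells by a median of 5.09 on the log2 scale, against 2.94 for all genes tested.

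Members at least 2-fold higher in a class than in all other gated cells numbered 13 in T-gated (background 21.7%), 12 in NK-gated (17.3%), 13 in macrophage-gated (23%), 15 in monocyte-gated (20%), 12 in neutrophil-gated (21%), 14 in dendritic-gated (22.1%), 12 in fibroblast-gated (27.2%) and 3 in hepatoma-gated cells (31.9%). Tnfrsf12a, Il33 and Tnfrsf22 were the 3 in hepatoma-gated cells, at 10% of the 30 members. Most gated cells were hepatoma-gated, so these counts mostly set a class against hepatoma-gated cells. Without hepatoma-gated cells, where 30 members were again tested, 5 members were called in NK-gated (background 9.3% of 1645 genes), 6 in macrophage-gated (21.6%), 7 in monocyte-gated (16.8%), 9 in dendritic-gated (13.1%) and 6 in fibroblast-gated cells (30.6%), while T-gated cells had 10 (19.6%) and neutrophil-gated cells 12 (25%). The heat map of the 34 genes shows the resulting blocks, with myeloid genes, lymphocyte receptor chains and a small fibroblast group apart.

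**Figure D1:**
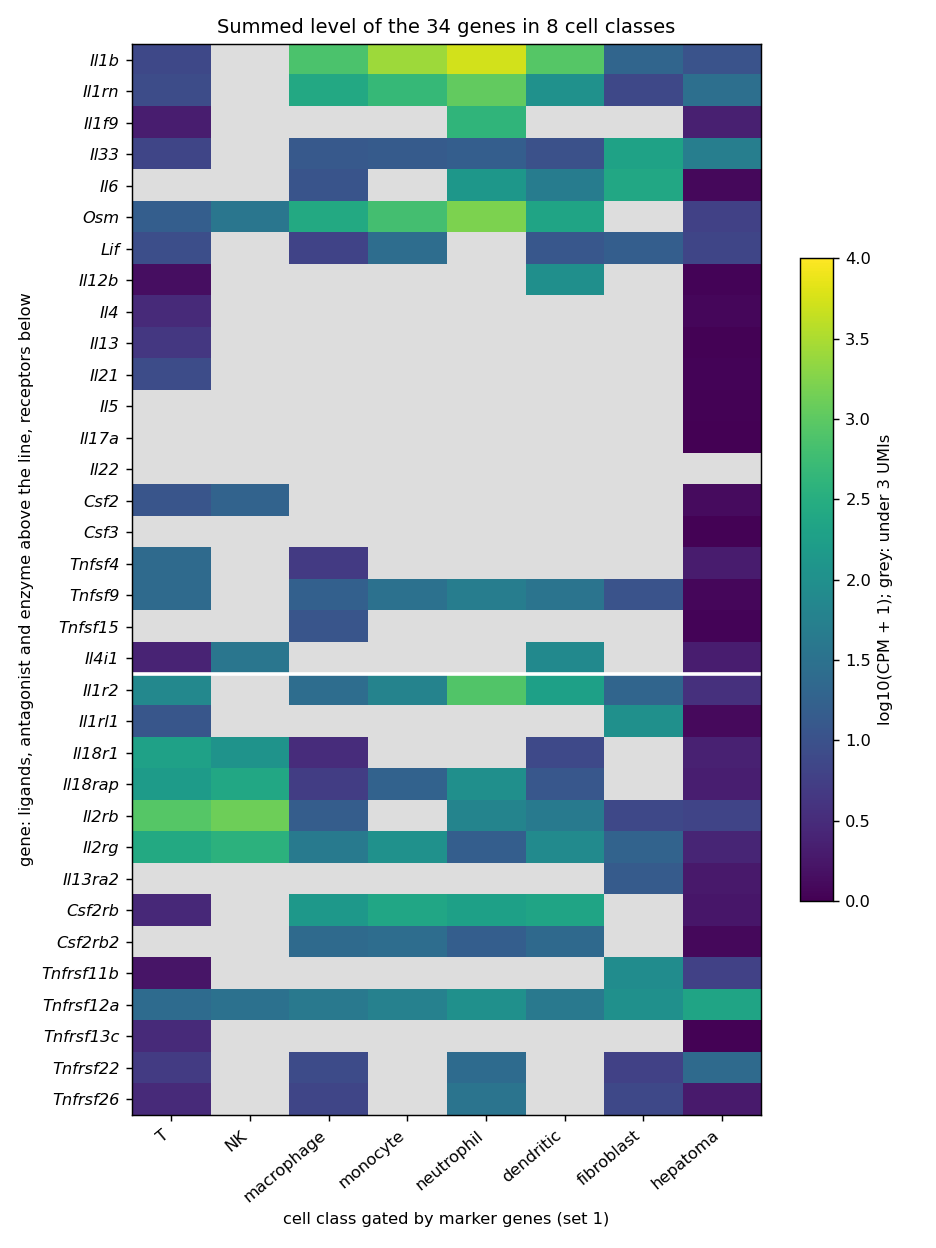
Level of the 34 genes (rows) in the 8 cell classes of set 1 (columns), as log10 of CPM plus 1, with fields of under 3 UMIs in grey. Il1b reached 5405 CPM in neutrophil-gated cells and Il2rb 1313 CPM in NK-gated cells, while Il4, Il13 and Il21 had at least 3 UMIs in T-gated and hepatoma-gated cells only.

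The interleukin-1 system was the main myeloid group. Il1b encodes interleukin-1β, an inflammatory cytokine that signals through the interleukin-1 receptor. Its level was 5405 CPM in neutrophil-gated cells (interval 5092 to 5731), 2588 in monocyte-gated, 866 in dendritic-gated, 747 in macrophage-gated, 19.4 in fibroblast-gated, 9.42 in hepatoma-gated and 6.45 in T-gated cells. No Il1b UMI was found in 47 NK-gated cells, where 3 UMIs would be 17.8 CPM. Every step of the order from neutrophil-gated through monocyte-gated and dendritic-gated to macrophage-gated cells exceeded counting error: the ratios were 2.09 (interval 1.89 to 2.31), 2.99 (2.63 to 3.4) and 1.16 (1.03 to 1.3). The 12 UMIs of fibroblast-gated cells came from 1 cell. Neutrophil markers were at 91.5 CPM in dendritic-gated cells with an Il1b UMI and 28.9 CPM in those without, at 230 and 352 CPM in macrophage-gated and at 304 and 370 CPM in monocyte-gated cells. In the 36 T-gated cells with an Il1b UMI they were at 106 CPM, against 23.9 CPM in the rest. The part of neutrophil RNA in these levels was not tested.

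Il1b was spread over most neutrophil-gated and monocyte-gated cells, but was more concentrated in macrophage-gated and dendritic-gated cells. At least 50% of its UMIs were held by 14 of 93 neutrophil-gated and 10 of 65 monocyte-gated cells. In dendritic-gated cells 7 of 84 held that share, and in macrophage-gated cells 22 of 504. With every cell thinned to 1000 UMIs, 76.3% of neutrophil-gated cells (exact binomial interval 66.4 to 84.5), 67.7% of monocyte-gated, 35.7% of dendritic-gated and 26.6% of macrophage-gated cells had an Il1b UMI. Hepatoma-gated cells had it in 1.2% at that depth and in 15.1% without thinning, at a median of 18528 UMIs. Neutrophil-gated cells had it in 83.9% without thinning, at a median of 1386 UMIs. Over the 6 sets the mean value in neutrophil-gated cells was 2.81 at the lowest, 3.54 at the median and 3.86 at the highest, and in monocyte-gated cells 2.29, 2.47 and 2.56. The neutrophil-gated cells were the highest class in each of the 6 sets and did not overlap with the monocyte-gated cells.

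Il1rn, the gene of the interleukin-1 receptor antagonist, which occupies the receptor without signalling, had the same leading classes. Its level was 1107 CPM in neutrophil-gated cells (968 to 1260), 482 in monocyte-gated, 259 in macrophage-gated and 105 in dendritic-gated cells. A single cell held 41.1% of the monocyte-gated UMIs. In macrophage-gated cells neutrophil markers were at 385 CPM with an Il1rn UMI and 213 CPM without, and in monocyte-gated cells at 380 and 283 CPM, and their part was not tested. In T-gated cells it was 7.39 CPM and in fibroblast-gated cells 6.45 CPM. Hepatoma-gated cells stood at 27.9 CPM (27.1 to 28.8), above both, on 4096 UMIs in 1893 of 6090 cells, and 360 cells held at least 50% of those UMIs.

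Whether the Il1rn of hepatoma-gated cells moved with myeloid RNA was looked at in the same cells. The summed level of 12 macrophage markers was 150 CPM in hepatoma-gated cells with an Il1rn UMI and 169 CPM in those without, and that of 11 neutrophil markers 31 and 25.8 CPM. The median depths of these cells were 27419 and 14829 UMIs. Their part was not tested. For Il1b the same 11 neutrophil markers were at 40.6 CPM in the 922 hepatoma-gated cells with a UMI and 24.4 CPM in those without. Over the sets Il1rn had a mean value of 0.18 to 0.27 in hepatoma-gated cells (median 0.20) and of 1.24 to 2.12 in neutrophil-gated cells (median 1.93).

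Il1f9, which encodes interleukin-36γ, an interleukin-1 relative with its own receptor, was the most restricted of the neutrophil group. It had 85 UMIs in 35 of 93 neutrophil-gated cells, or 411 CPM (328 to 508). The next class, monocyte-gated cells, had 1 UMI, for a ratio of 95.6 with an interval of 16.7 to 3819. In hepatoma-gated cells it was 1.23 CPM, 0.299% of the neutrophil-gated level. The mean value in neutrophil-gated cells had a median of 1.43 over the sets and ran from 0.75 to 1.56, and the sets with the lowest values were set 3 and set 1.

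Il1r2 encodes the decoy receptor that binds interleukin-1 without passing on a signal. It stood at 827 CPM in neutrophil-gated cells (707 to 960), 188 in dendritic-gated (150 to 232), 73.7 in T-gated (67.7 to 80.2), 60.2 in monocyte-gated and 26.1 in macrophage-gated cells. Monocyte-gated and T-gated cells did not differ beyond counting error, with a ratio of 0.816 (0.443 to 1.38). The place of monocyte-gated cells in this order thus differed from that for Il1b, Il1rn and Osm, for which they were second. Of the monocyte-gated Il1r2 UMIs, 50% came from 1 cell. In neutrophil-gated cells thinned to 1000 UMIs, 42 of the 71 cells with an Il1b UMI also had an Il1r2 UMI, or 59.2%, against 18.2% of those without Il1b. This is a description within 93 cells of 1 library.

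**Figure D2:**
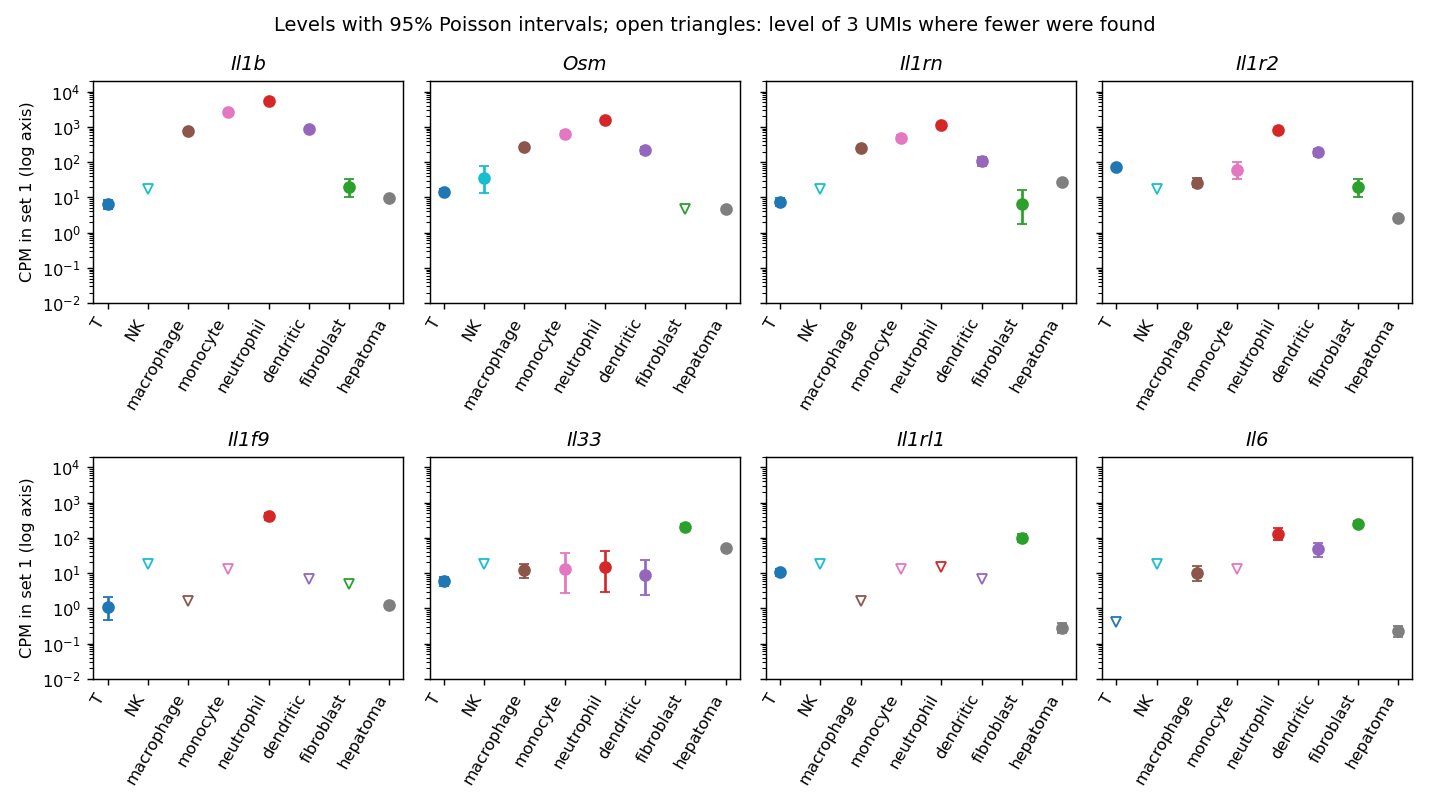
Levels of 8 members in the 8 classes of set 1 on a log axis, as points with 95% Poisson intervals, and open triangles at the level of 3 UMIs where fewer were found. Il1b, Osm, Il1rn, Il1r2 and Il1f9 were highest in neutrophil-gated cells, and Il33, Il1rl1 and Il6 in fibroblast-gated cells.

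Osm and Lif encode oncostatin M and leukaemia inhibitory factor, related cytokines that share the receptor chain gp130. Their genes lie next to each other on chromosome 11, 16.5 kb apart in RefSeq on GRCm38.p6, yet their maps differed. Osm had the neutrophil-gated and monocyte-gated cells first, as Il1b had, but macrophage-gated before dendritic-gated cells. It was at 1600 CPM in neutrophil-gated cells (1432 to 1782), 632 in monocyte-gated, 271 in macrophage-gated, 214 in dendritic-gated, 14.5 in T-gated and 4.84 in hepatoma-gated cells. Each step down to dendritic-gated cells exceeded counting error, the smallest being macrophage-gated over dendritic-gated cells at 1.26 (1.01 to 1.59). In the 6 sets the mean Osm value of neutrophil-gated cells was 1.47 to 2.44 with a median of 1.76, that of monocyte-gated cells 1.08 to 1.36 with a median of 1.25, and the classes did not overlap. Neutrophil markers were at 384 CPM in monocyte-gated cells with an Osm UMI and 207 CPM in those without, and their part was not tested.

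Lif had 947 UMIs in gated cells, and 856 of these were in hepatoma-gated cells at 5.84 CPM (5.45 to 6.24). Its highest class by level was monocyte-gated cells at 25.8 CPM, but on 6 UMIs in 2 cells. The interval of the ratio to fibroblast-gated, dendritic-gated and NK-gated cells held 1, so no class can be named as highest. T-gated cells had 60 UMIs in 26 cells, and the CD4 sub-gate described below held 27 of these. Lif was named here after its values were seen.

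Il33 and Il1rl1 are a ligand and its receptor: interleukin-33 is an alarmin kept in the nucleus, and Il1rl1 encodes ST2, the receptor chain that binds it. Il33 was at 202 CPM in fibroblast-gated cells (168 to 240) and at 51.1 CPM in hepatoma-gated cells (50 to 52.3). The fibroblast-gated level was 3.94 times as high (3.28 to 4.71). Hepatoma-gated cells nevertheless held 7498 of the 7698 gated UMIs, in 3042 of 6090 cells without thinning. After thinning to 1000 UMIs, 5.34% of hepatoma-gated cells (4.79 to 5.93) and 0.739% of T-gated cells had an Il33 UMI.

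The low Il33 levels of the immune classes are given beside the hepatoma markers found there. T-gated cells had 11.3% of the hepatoma-gated Il33 level and 11.2% of the hepatoma marker level. Macrophage-gated cells had 23.4% and 19.4%, neutrophil-gated cells 28.4% and 24.2%, dendritic-gated cells 17.5% and 14%, and monocyte-gated cells 25.2% and 14.9%, the last 3 on 3 or 4 Il33 UMIs each. NK-gated cells had no Il33 UMI. Fibroblast-gated cells departed from this, with 394% of the hepatoma-gated Il33 level against 14.5% of the marker level. Mean values of Il33 were 0.51 to 0.73 in fibroblast-gated cells (median 0.64) and 0.32 to 0.36 in hepatoma-gated cells (median 0.34), with no overlap over the 6 sets.

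Il1rl1 was highest in fibroblast-gated cells, at 100 CPM (76.7 to 128), on 62 UMIs in 9 of 74 cells, of which 2 cells held at least 50%. T-gated cells had 80 UMIs in 51 cells, or 10.7 CPM (8.52 to 13.4). This was 38.4 times the level of hepatoma-gated cells (26.1 to 57.5). Within T-gated cells the level was 97.8 CPM (59.8 to 151) in the 35 regulatory T-gated cells, 19.9 in the 59 CD4 T-gated cells and 7 in the 914 CD8 T-gated cells. Regulatory over CD8 T-gated cells was 14 (7.83 to 24.1), on 20 UMIs in 6 cells. The 13 fibroblast markers were at 15 CPM in T-gated cells with an Il1rl1 UMI and 19.9 CPM in those without. Cells gated as mast cells or basophils, a type known for ST2, had the highest mean Il1rl1 value of any gate, at 2.43 over 59 cells of all sets. In set 4 and set 6, which held 14 and 31 of these cells, it was 2.65 and 2.38. In fibroblast-gated cells the mean value had a median of 0.26 and ran from 0.13 to 0.42, the highest of the 8 classes in all 6 sets. In regulatory T-gated cells it had a median of 0.18 and ran from 0.14 to 0.30, above CD8 T-gated cells at 0.02 to 0.04 in every set. CD4 T-gated cells, at 0.05 to 0.19 with a median of 0.13, overlapped with the regulatory T-gated cells, so the order of these 2 sub-gates in set 1 did not recur in every set.

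Il6 encodes interleukin-6, a cytokine of the acute phase that acts on hepatocytes among other cells. It was at 253 CPM in fibroblast-gated cells (215 to 296), 46.9 in dendritic-gated, 9.78 in macrophage-gated and 0.225 in hepatoma-gated cells. The 131 CPM of neutrophil-gated cells rested on 27 UMIs of 1 cell, and 71.4% of the 21 dendritic-gated UMIs were in 1 cell. Fibroblast-gated cells were uneven too, with 157 UMIs in 25 of 74 cells and at least 50% of them in 3 cells. After thinning, 17.6% of fibroblast-gated cells (9.7 to 28.2) had an Il6 UMI, against 0.0328% of hepatoma-gated cells. The mean value in fibroblast-gated cells had a median of 0.52 over the sets and ran from 0.31 to 0.70, and none of the other 7 classes exceeded 0.11 in any set. Mature dendritic-gated cells reached 0.25 in set 1, on 4 UMIs in 2 cells, and the 14 mast or basophil-gated cells of set 4 had 0.35.

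The promoter of Il6 is shown because it was the only one of the member promoters with the NF-κB letters searched. In the 250 bases before its RefSeq start (GRCm38.p6, chr5:30012864-30013113, plus strand), each of 3 motifs searched on both strands was found once, and the matches are in capitals below. They are TGANTCA, the letters bound by AP-1, which are in 6.75% of 32851 RefSeq promoter windows of that length, TTGCNNAA, bound by C/EBP factors, in 9.56%, and the NF-κB motif, matched here as GGGATTTTCC, in 0.356%. The first base of each match lies 249, 128 and 44 bases before the start. Among 32 promoter windows of the 25 members with an entry, AP-1 letters were in 5, C/EBP letters in 5 and NF-κB letters in that of Il6 only. These matches describe the letters and show no binding.
Il6: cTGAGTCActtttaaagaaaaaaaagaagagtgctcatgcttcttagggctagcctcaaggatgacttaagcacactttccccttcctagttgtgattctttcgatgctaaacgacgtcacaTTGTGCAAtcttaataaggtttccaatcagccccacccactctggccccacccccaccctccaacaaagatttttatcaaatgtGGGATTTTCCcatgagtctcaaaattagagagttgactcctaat

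The cytokines of helper T cells were few in number and sat in a small group of cells. Il4 and Il13 direct type 2 responses, Il21 helps B cells and CD8 T cells, and Csf2 encodes GM-CSF, a growth factor of myeloid cells. Their levels over all T-gated cells were 2.01, 3.49, 7.39 and 10.3 CPM, on 15, 26, 55 and 77 UMIs. By class, Il21 and Csf2 were nominally highest in NK-gated cells on 2 and 3 UMIs of 1 cell each, and Il4 in monocyte-gated cells on 1 UMI. In each case the interval of the ratio to T-gated cells held 1. On mean values, however, monocyte-gated cells were highest for Il4 in 4 of 6 sets, and T-gated cells in sets 4 and 5. NK-gated cells were highest in 1 set for Il21 and in 2 for Csf2. These 4 genes had under 50 UMIs in their highest class or sub-gate, and were described after their values were seen.

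Splitting T-gated cells by sub-gate markers such as Cd4, Cd8a and Foxp3 set these genes apart. In the 59 CD4 T-gated cells Il21 was at 116 CPM (83.5 to 158) on 41 UMIs in 6 cells, against 1.52 CPM in 914 CD8 T-gated cells, a ratio of 76.5 (37.7 to 171). Il13 was at 65.3 CPM on 23 UMIs in 3 cells, and 1 cell held 78.3% of them. Il4 was at 34.1 CPM on 12 UMIs in 4 cells, a ratio to CD8 T-gated cells of 74.6 (20.1 to 412). Csf2 was at 79.5 CPM on 28 UMIs in 5 cells, against 7.45 CPM on 49 UMIs in 26 CD8 T-gated cells, a ratio of 10.7 (6.45 to 17.3). Lif was at 76.6 CPM on 27 UMIs in 7 cells, a ratio of 29.6 (15.6 to 57.9). In regulatory T-gated cells Lif was at 24.5 CPM (7.94 to 57.1) on 5 UMIs in 2 cells. Over the 6 sets its mean value was 0.07 to 0.18 in CD4 (median 0.10) and 0.08 to 0.19 in regulatory T-gated cells (median 0.12), which overlapped. Lif was thus not particular to the CD4 sub-gate. None of Il21, Il13, Il4 and Csf2 had a UMI in the 35 regulatory T-gated cells, where 3 would be 14.7 CPM. This floor lies above the CD8 T-gated level of each of these genes, so regulatory and CD8 T-gated cells could not be ordered for them. With so few cells the intervals, which cover counting error only, understate the uncertainty.

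The other sets gave the same direction for CD4 against CD8 T-gated cells. Over the 6 sets the mean value in CD4 T-gated cells was 0.17 to 0.22 for Il21 (median 0.20), 0.09 to 0.18 for Il13 (median 0.12), 0.07 to 0.16 for Il4 (median 0.11) and 0.13 to 0.24 for Csf2 (median 0.17). In CD8 T-gated cells the highest set had 0.02 for Il21 and 0.04 for Csf2, and 0.00 for Il13 and Il4. CD4 and CD8 T-gated cells did not overlap for any of the 4 genes, in sets of 59 to 173 CD4 T-gated cells. Il4 was higher still in mast or basophil-gated cells, at 0.94 in the 31 such cells of set 6.

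Il1r2 showed the same split on many more UMIs. It had 135 UMIs in 20 of 59 CD4 T-gated cells, or 383 CPM (321 to 453), 137 CPM (91 to 198) in regulatory T-gated cells and 52.3 CPM (46.9 to 58.2) in CD8 T-gated cells. CD4 over CD8 T-gated cells was 7.32 (5.95 to 8.96), and CD4 over regulatory T-gated cells 2.8 (1.85 to 4.37). The mean value over the sets was 0.57 to 0.75 in CD4 T-gated cells (median 0.67), 0.31 to 0.42 in regulatory (median 0.35) and 0.13 to 0.25 in CD8 T-gated cells (median 0.16), with no overlap. Neutrophil markers were at 26 CPM in T-gated cells with an Il1r2 UMI and 28.5 CPM in those without.

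**Figure D3:**
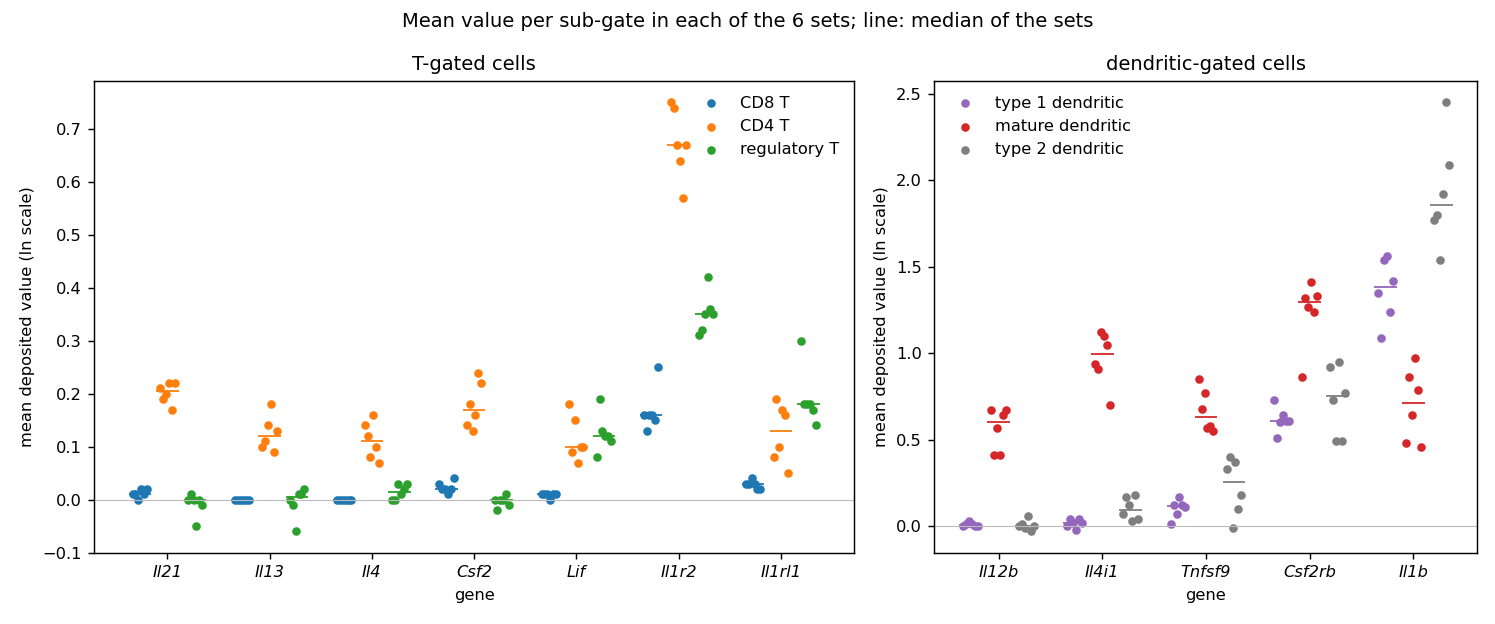
Mean deposited value of 7 members in 3 sub-gates of T-gated cells (left) and of 5 members in 3 sub-gates of dendritic-gated cells (right), with 1 point per set and a line at the median of the 6 sets. The CD4 T-gated points of Il21, Il13, Il4, Csf2 and Il1r2 lie above all CD8 T-gated points, and the mature dendritic-gated points of Il12b, Il4i1 and Tnfsf9 above those of the other dendritic sub-gates.

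Promoter windows were searched for GGAAAA, the core letters bound by the T-cell factor NFAT, and for TGANTCA of AP-1, on both strands. Il21, Il13, Il4, Csf2, Lif and Il1r2 are described above as higher in the CD4 than in the CD8 sub-gate. Of these, Il4, Il13 and Il21 had GGAAAA and are shown for that reason, with matches in capitals. For Csf2, Lif and Il1r2 none was found, and Lif had the AP-1 letters. Il1rl1, Il2rg, Il4i1 and Tnfrsf26 were also higher in the CD4 sub-gate, Il4i1 and Tnfrsf26 on 3 UMIs each. No GGAAAA was found for them either, though not every member had a window. GGAAAA or its complement was in 9 of the 32 member windows, or 28.1%, and in 20.4% of all 32851 windows. It occurred 4 times before the farther upstream of the 2 RefSeq starts of Il4 (chr11:53618666-53618915, minus strand) and not before the other start, 1 time before that of Il13 (chr11:53634703-53634952, minus strand) and 2 times before that of Il21 (chr3:37232637-37232886, minus strand). No AP-1 letters were in these 3 windows, and the NF-κB letters of Il6 above also contain the complement of GGAAAA. Il4 and Il13 are neighbours, 12.7 kb apart on chromosome 11.
Il4: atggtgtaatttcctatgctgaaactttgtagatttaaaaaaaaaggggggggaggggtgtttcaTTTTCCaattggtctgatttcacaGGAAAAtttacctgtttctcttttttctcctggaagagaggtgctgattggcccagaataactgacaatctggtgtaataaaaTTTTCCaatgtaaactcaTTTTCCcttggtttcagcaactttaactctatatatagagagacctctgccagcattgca
Il13: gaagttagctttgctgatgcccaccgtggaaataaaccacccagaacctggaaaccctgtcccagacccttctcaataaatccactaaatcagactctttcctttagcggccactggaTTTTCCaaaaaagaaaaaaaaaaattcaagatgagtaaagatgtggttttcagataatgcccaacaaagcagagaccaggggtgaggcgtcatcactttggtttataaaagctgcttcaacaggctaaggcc
Il21: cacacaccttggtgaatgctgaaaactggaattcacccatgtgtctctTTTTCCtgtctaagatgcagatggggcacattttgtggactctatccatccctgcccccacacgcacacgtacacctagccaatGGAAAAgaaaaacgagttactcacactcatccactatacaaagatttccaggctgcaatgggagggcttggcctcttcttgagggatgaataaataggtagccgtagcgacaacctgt

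Dendritic-gated cells had a distinct group of members in cells gated as mature, that is with genes such as Ccr7 and Fscn1 that dendritic cells switch on when they migrate. Il12b, Il4i1 and Tnfsf9 were described after their values were seen. Il12b encodes the p40 subunit of interleukin-12 and interleukin-23. It was highest in dendritic-gated cells in all 6 sets, and in set 1 had 43 UMIs in 5 of 84 dendritic-gated cells, or 96 CPM (69.5 to 129). Of these, 38 were in 4 of 16 mature dendritic-gated cells, at 687 CPM (486 to 942), and 57.9% of those came from 1 cell. None was found in the 39 type 1 or 18 type 2 dendritic-gated cells, so the mature level was at least 55.4-fold and at least 22.1-fold higher when 3 UMIs are allowed in each empty sub-gate. The mean value of mature dendritic-gated cells had a median of 0.60 over the sets and ran from 0.41 to 0.67, against 0.06 at most in the other sub-gates.

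Il4i1 encodes a secreted enzyme that breaks down aromatic amino acids, and is a member only by its symbol. It had 30 UMIs in 8 of 16 mature dendritic-gated cells, or 542 CPM (366 to 774), of 35 UMIs in all dendritic-gated cells. Its mean value in mature dendritic-gated cells had a median of 0.99 over the sets and ran from 0.70 to 1.12, with 0.18 at most in type 1 and type 2 dendritic-gated cells. Tnfsf9, the ligand of the co-stimulatory receptor 4-1BB (Tnfrsf9), was nominally highest in neutrophil-gated cells on 10 UMIs in 5 cells, at 48.3 CPM. On mean values it was highest in dendritic-gated cells in all 6 sets, at 0.21 to 0.31. In mature dendritic-gated cells the mean was 0.55 to 0.85 with a median of 0.63, and 8 of 16 such cells in set 1 had 1 UMI each. T-gated cells held most of its UMIs, 171 of 267, at 23 CPM (19.7 to 26.7).

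The receptor chains of interleukin-2 and interleukin-15 marked lymphocytes. Il2rb encodes their shared β chain and Il2rg the γ chain that further interleukins also use. Il2rb was at 1313 CPM in NK-gated cells (1146 to 1498) and 876 in T-gated cells (854 to 897), a ratio of 1.5 (1.31 to 1.72). The next class, neutrophil-gated cells, was at 62.8 CPM, and T-gated cells exceeded it 13.9-fold (8.14 to 26.2). After thinning, 63.8% of NK-gated (48.5 to 77.3) and 55.8% of T-gated cells (52.8 to 58.8) had an Il2rb UMI, against 0.525% of hepatoma-gated cells, and without thinning 91.5%, 91.1% and 12.3%. The mean value was 2.29 to 2.54 in NK-gated cells (median 2.39) and 1.97 to 2.07 in T-gated cells (median 2.02), with no overlap over the sets.

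Among T-gated cells Il2rb was 889 CPM in CD8 T-gated (867 to 912), 837 in regulatory (716 to 972) and 590 in CD4 T-gated cells (513 to 676). The intervals of the first 2 overlap. Il2rg had another order, with 426 CPM in regulatory (341 to 525), 375 in CD4 (313 to 444) and 247 in CD8 T-gated cells (235 to 259). Over whole classes it was 368 CPM in NK-gated (282 to 472), 264 in T-gated (252 to 275), 103 in monocyte-gated, 80.4 in dendritic-gated and 43.4 in macrophage-gated cells. NK-gated over T-gated cells was 1.4 (1.07 to 1.8). The mean Il2rg value was 1.18 to 1.41 in NK-gated cells (median 1.29) and 0.96 to 1.07 in T-gated cells (median 0.99). The third chain, Il2ra, which is no member, was at 338 CPM in regulatory, 128 in CD4 and 60.8 in CD8 T-gated cells.

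Il18r1 and Il18rap encode the binding and the signalling chain of the interleukin-18 receptor, which drives interferon-γ in lymphocytes. Their genes are neighbours on chromosome 1, 14.5 kb apart, with Il1rl1 0.134 kb from Il18r1 and Il1r2 in the same cluster. Il18r1 was at 192 CPM in T-gated cells (182 to 202) and 113 in NK-gated cells (68 to 176), a ratio of 1.7 (1.08 to 2.83). Il18rap had the reverse order, with 250 CPM in NK-gated (180 to 337), 158 in T-gated (149 to 168) and 96.7 in neutrophil-gated cells (59.1 to 149), and NK-gated over T-gated cells was 1.58 (1.13 to 2.15). Il18rap was described after its values were seen, with 42 UMIs in NK-gated cells.

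The opposite orders of these 2 chains recurred in most sets. The mean Il18r1 value was 0.69 to 0.75 in T-gated cells (median 0.72) and 0.28 to 0.76 in NK-gated cells (median 0.47), and T-gated cells were higher in 5 of 6 sets, all but set 3. For Il18rap it was 0.84 to 0.91 in NK-gated (median 0.88), 0.52 to 0.66 in T-gated (median 0.56) and 0.34 to 0.54 in neutrophil-gated cells. The neutrophil-gated cells, with 20 Il18rap UMIs in 18 cells, had 2 Il18r1 UMIs. In regulatory T-gated cells Il18rap was at 29.4 CPM (10.8 to 63.9) and Il18r1 at 161 (111 to 227), against 165 (155 to 175) and 197 (187 to 208) in CD8 T-gated cells. In T-gated cells thinned to 1000 UMIs, 14.2% of cells with an Il18r1 UMI and 14% of those without had an Il18rap UMI.

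**Figure D4:**
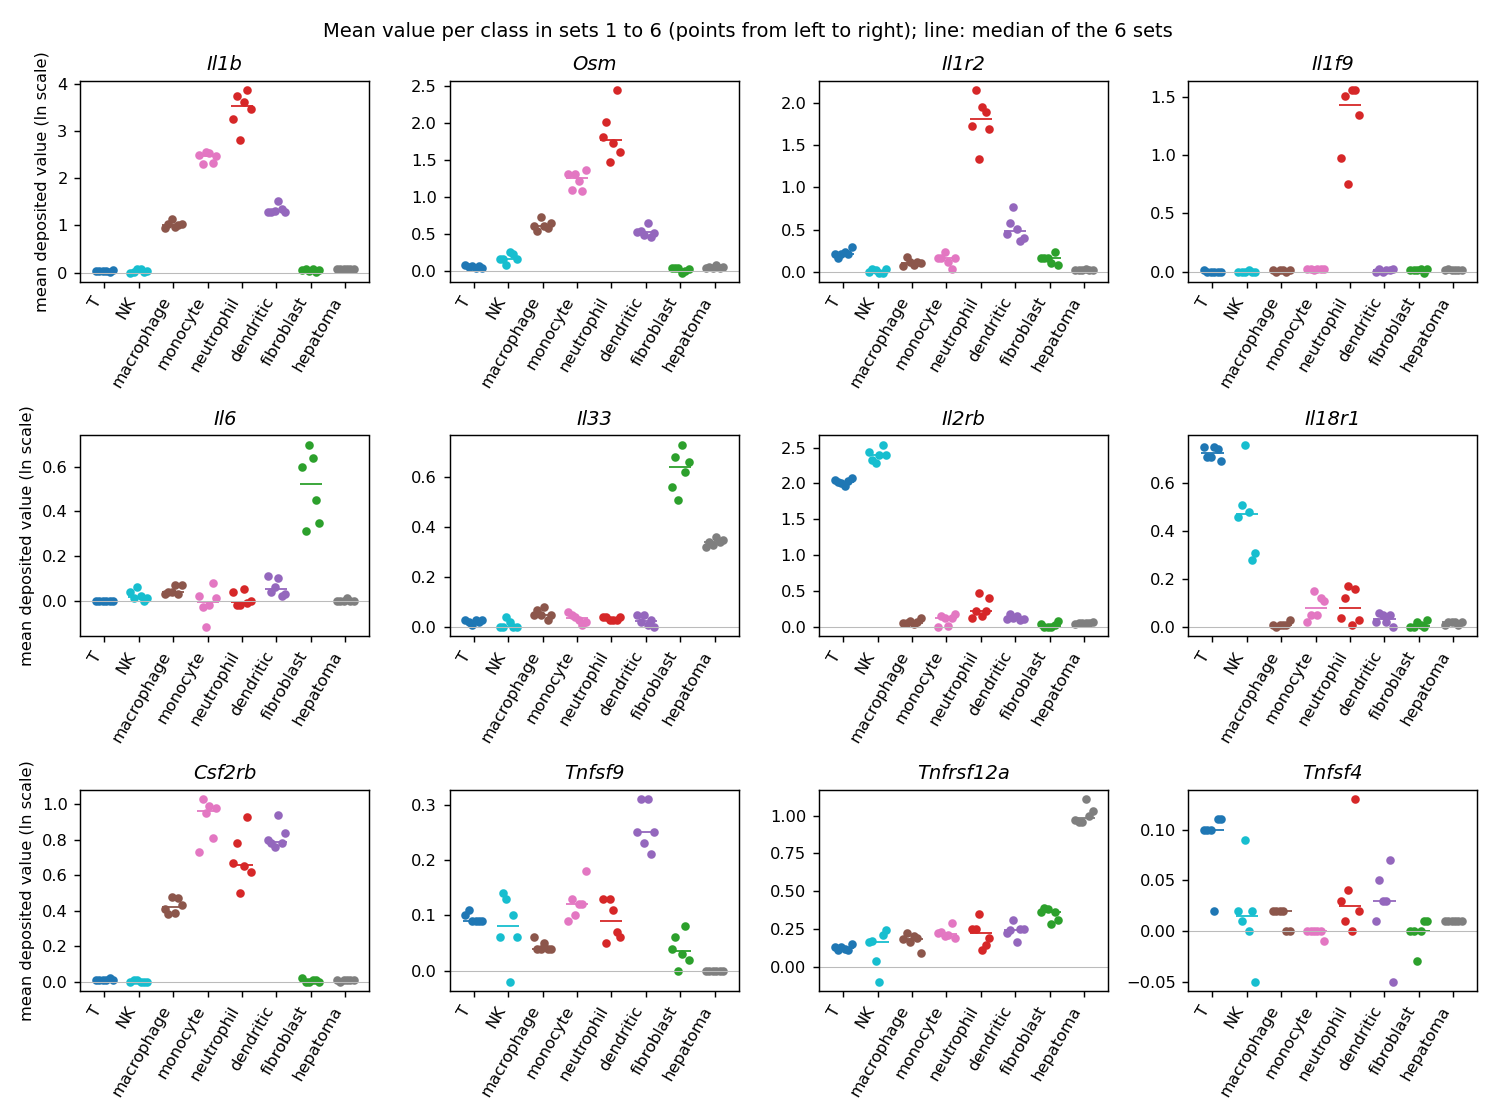
Mean deposited value (natural log scale) of 12 members per class, with 1 point for each of the 6 sets from left to right and a line at their median. Neutrophil-gated points of Il1b lie between 2.81 and 3.86, above all other classes, and in T-gated cells the Tnfsf4 point of set 4, at 0.02, lies apart from the others.

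Csf2rb encodes the shared β chain of the receptors for GM-CSF, interleukin-3 and interleukin-5, and Csf2rb2 a mouse copy that serves interleukin-3. Csf2rb was at 236 CPM in monocyte-gated (178 to 308), 214 in dendritic-gated (174 to 262), 184 in neutrophil-gated (130 to 252) and 133 in macrophage-gated cells (116 to 150). The ratio of monocyte-gated to dendritic-gated cells was 1.1 (0.777 to 1.55) and that to neutrophil-gated cells 1.29 (0.836 to 2), so these 3 classes could not be ordered. Monocyte-gated exceeded macrophage-gated cells, with a ratio of 1.78 (1.31 to 2.4). T-gated cells had 1.88 CPM and hepatoma-gated cells 0.723 CPM. Over the sets the mean was 0.73 to 1.03 in monocyte-gated cells (median 0.97), 0.76 to 0.94 in dendritic-gated (median 0.79) and 0.50 to 0.93 in neutrophil-gated cells (median 0.66), which overlap, and mature dendritic-gated cells had 0.86 to 1.41 (median 1.30).

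The 2 β chain genes lie 20.1 kb apart on chromosome 15 and are near-identical copies, so the split of their UMIs is uncertain. Csf2rb2 had 93 gated UMIs, 42 of them in macrophage-gated cells, and its highest class, monocyte-gated cells, rested on 6 UMIs. Plasmacytoid dendritic-gated cells, a class outside the 8, had 8 Csf2rb2 and 6 Csf2rb UMIs in 6 cells. Csf2, whose product binds the receptor with the Csf2rb chain, was in T-gated cells as described, and Csf3, which encodes G-CSF, had 7 UMIs in all gated cells.

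The TNF-family members had no common class. Tnfsf4 encodes OX40 ligand, the partner of OX40 (Tnfrsf4), usually described on antigen-presenting cells. It was at 23.1 CPM in T-gated cells (19.8 to 26.8), on 172 UMIs in 106 of 1082 cells, 22 times the hepatoma-gated level (17.6 to 27.5) and 6.08 times the macrophage-gated level (2.89 to 15.3). Dendritic-gated cells had 1 UMI in set 1. NK-gated and neutrophil-gated cells had 1 UMI each, and their ratio intervals held 1. CD8 T-gated cells had 25.1 CPM (21.4 to 29.2) on 165 UMIs, and CD4 T-gated cells 14.2 CPM (4.61 to 33.1) on 5 UMIs, which did not differ beyond counting error, at a ratio of 0.565 (0.181 to 1.35). Regulatory T-gated cells had no UMI, where 3 would be 14.7 CPM. Over the sets the mean value was 0.03 to 0.11 in CD8 and 0.02 to 0.13 in CD4 T-gated cells, which overlapped, and -0.01 to 0.06 in regulatory T-gated cells. The mean value of all T-gated cells was 0.02 in set 4 and 0.10 or 0.11 in the other 5 sets, and they were the highest class in 4 of 6 sets. Dendritic-gated cells were highest in set 4 at 0.03 and neutrophil-gated cells in set 5 at 0.13. Mature dendritic-gated cells had 0.00, 0.10, 0.11, 0.10, 0.19 and -0.20 in sets 1 to 6, a range that includes values as high as those of T-gated cells. Tnfrsf4, which is no member, was at 543 CPM in regulatory, 304 in CD4 and 76.4 in CD8 T-gated cells.

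Tnfrsf12a encodes Fn14, the receptor of the cytokine TWEAK, which is known for its part in tissue repair. Its level was 212 CPM in hepatoma-gated cells (209 to 214), on 31061 UMIs in 5190 of 6090 cells. Neutrophil-gated cells had 102 CPM (62.8 to 155) and fibroblast-gated cells 100 CPM (76.7 to 128), which did not differ, at a ratio of 1.02 (0.588 to 1.69). They had 47.9% and 47.2% of the hepatoma-gated level, against 24.2% and 14.5% for the summed hepatoma markers. Monocyte-gated cells had 26.4% against 14.9%, and dendritic-gated cells 19% against 14%. In T-gated, NK-gated and macrophage-gated cells the level was 11.4%, 14% and 19% of that in hepatoma-gated cells, against 11.2%, 13.6% and 19.4% for the markers. The mean value was 0.96 to 1.11 in hepatoma-gated cells (median 0.99) and 0.28 to 0.39 in fibroblast-gated cells (median 0.36), with no overlap. After thinning, 18.2% of hepatoma-gated (17.3 to 19.2) and 3.23% of T-gated cells had a UMI.

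Tnfrsf22 and Tnfrsf26 are neighbouring genes on chromosome 7, 6.96 kb apart, of a group of decoy-type TRAIL receptor copies of the mouse, so that their reads may be confused. Tnfrsf22 was at 23.1 CPM in hepatoma-gated cells (22.3 to 23.9) on 3390 of its 3440 gated UMIs. It was nominally higher in neutrophil-gated cells on 5 UMIs, with a ratio of 1.05 (0.339 to 2.44). On mean values hepatoma-gated cells were highest in all 6 sets, at 0.16 to 0.20 with a median of 0.16. Tnfrsf26 had 7 UMIs in 7 neutrophil-gated cells, or 33.8 CPM, against 135 UMIs at 0.92 CPM in hepatoma-gated cells, and neutrophil-gated cells were highest in all 6 sets. Both were named after their values were seen.

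Tnfrsf11b encodes osteoprotegerin, a secreted decoy receptor for RANKL (Tnfsf11) and TRAIL. It was at 88.7 CPM in fibroblast-gated cells (66.8 to 115) on 55 UMIs in 20 of 74 cells, 17.7 times the 5.02 CPM of hepatoma-gated cells (13.2 to 23.3). Hepatoma-gated cells held 736 UMIs in 334 of 6090 cells, and 49 cells held at least 50% of them. The 13 fibroblast markers were at 41 CPM in the hepatoma-gated cells with a Tnfrsf11b UMI and 39.4 CPM in those without. Its mean value over the sets was 0.28 to 0.45 in fibroblast-gated cells (median 0.39) and 0.02 to 0.04 in hepatoma-gated cells.

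The remaining members were sparse. Tnfsf15, the ligand of death receptor 3, had 37 gated UMIs and was nominally highest in macrophage-gated cells on 19. Tnfrsf13c, the B-cell receptor for BAFF, had 23 and was nominally highest in T-gated cells on 15. In cells gated as B or plasma cells its mean value was 0.30 to 0.47 over the sets. Il13ra2, a decoy receptor for interleukin-13, had 134 gated UMIs, 124 of them in hepatoma-gated cells. It was nominally highest in fibroblast-gated cells on 8 UMIs, of which 75% were in 1 cell. Il17a, Il22 and Il5, cytokines of helper and innate lymphocytes, had 7, 3 and 9 gated UMIs and were not tested.

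Across the sets, 16 of the 34 members had the class of highest UMI level as the class of highest mean value in all 6. These were Il1b, Il1r2, Osm, Il1rn, Il1f9 and Tnfrsf26 in neutrophil-gated cells, Il6, Il1rl1, Tnfrsf11b and Il33 in fibroblast-gated, Il2rb, Il18rap and Il2rg in NK-gated, Il12b and Il4i1 in dendritic-gated and Tnfrsf12a in hepatoma-gated cells. Tnfrsf22 and Tnfsf9 kept 1 class in all sets that was not their class by UMIs. The class by UMIs was taken from set 1, which is also among the 6, so set 1 gives no separate check of it. The same share over all genes of the table is not given, so 16 of 34 cannot be read as more or less than usual. Among the 34 genes, 13 overlap another RefSeq gene model, such as Tnfrsf12a with Hcfc1r1 and Il4i1 with Tbc1d17, and the strand setting of the counting is not given in the sources used here, so reads of such pairs may be mixed.

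Related genes with other symbols were described from lists. Of 16 TNF superfamily genes with other symbols, 7 were in the table, of which 6 were at least 2-fold higher in T-gated cells (background 21.7% of all genes), 4 in NK-gated (17.3%) and 4 in dendritic-gated cells (22.1%). Of 25 cytokine signalling and feedback genes, 7 were in the table, with 5 at least 2-fold higher in monocyte-gated cells (background 20%) and 4 each in T-gated and dendritic-gated cells, with the backgrounds just given. Of 20 cytokine and growth factor genes with other symbols, 5 were in the table, with no class above 2 members. Of the 9 family genes left out by the rule, 8 were at least 2-fold higher in T-gated cells, 6 in NK-gated and 6 in dendritic-gated cells, against the same backgrounds.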

How the data were processed

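The deposited table held 2000 genes in 53528 cells of droplet 3′ single-cell libraries. Reads were aligned with STAR 2.7.2b, per the submitters' processing notes, which name the builds GRCh38 and mm10 without saying which served these libraries. The authors deposited values on a natural log scale. In set 1 these are ln(1 + UMI × 10000 / total), so UMI counts were recovered from the deposited values with a tolerance of 0.01. Sets 2 to 6 hold values below 0 and were used as means only. None of the 53528 columns could be tied to a labelled sample, so all cells entered as 1 pooled sample.

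Cells with a mean of 19 hepatoma markers of at least 0.8 were gated as hepatoma if no other class scored 0.4 or more. Those with such a score stayed ungated. Cells below 0.8 took the class with the highest mean z-score, if above 0.4, with a lead of 0.2 and at least 3 markers on. The 8 classes had 102 marker genes. Plasmacytoid dendritic, B or plasma, mast or basophil and endothelial types were scored beside them. Scrublet called 91 cells of set 1 (0.971%) as doublets, which were left out there. Levels are summed UMIs per 1000000. A member was called in a class at 2-fold over all other gated cells, with at least 10 gated UMIs. Poisson and exact Clopper-Pearson 95% intervals cover counting error only, and 3 UMIs was the floor. The rule for named genes was that members with at least 50 UMIs in their class of highest level in set 1 are described in full, which gave 15 of the 30 tested, and the others by name, count and class. Members described further than that are said to be chosen after their values were seen. The members, lists and rules were chosen with earlier results of these data known. The calculations were tested on simulated Poisson counts for T-gated and macrophage-gated cells. The simulation had no variation in level between cells of a class, so it does not cover UMIs held by few cells. Promoter windows and gene positions are RefSeq's on GRCm38.p6: 25 of 34 members had a window. Python 3.11.15, numpy 2.4.6, scipy 1.17.1, pandas 2.3.3, scanpy 1.11.5 and leidenalg 0.10.2 were used. Alternatives were other gates, thinning, minimums, folds and references.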

Additional observations from a re-analysis of the deposited data

Results flagged for a closer look

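Tnfsf4 in T-gated cells had a mean value of 0.02 in set 4, against 0.10 or 0.11 in the other 5 sets, and set 4 stood farther from the nearest other set than the limit for 6 values allows. The 6 sets of 15 members were checked in this way and 1 stood apart, and chance gives such a sample in about 1 in 20 checks. Set 4 could not be tied to a labelled group.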

How the results depend on the processing

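Of the class counts and shares of cells, 134 stayed within their limits under the alternatives and 28 moved. Of the ratios of a described member's highest class to all other gated cells, 90 stayed within their counting interval and 58 moved. None of either kind reversed. The number of members highest in a class moved to 7 in dendritic-gated and 2 in hepatoma-gated cells with graph clusters, under which monocytes could not be given. It moved to 1 in monocyte-gated, 4 in dendritic-gated and 2 in hepatoma-gated cells at 1000 UMIs per cell, and to 0 in macrophage-gated and 2 in hepatoma-gated cells with means over cells. With no UMI minimum it was 7 in T-gated cells, and with a minimum of 50 it was 2 in T-gated and 0 in macrophage-gated cells. Members at least 2-fold higher numbered 8 in monocyte-gated cells after thinning and 5 in hepatoma-gated cells against the median of the other classes. Without hepatoma-gated cells in the reference, an alternative added after seeing the data, they numbered 5 in NK-gated (9.3% of all genes), 6 in macrophage-gated (21.6%), 7 in monocyte-gated (16.8%), 9 in dendritic-gated (13.1%) and 6 in fibroblast-gated cells (30.6%). Shares of cells moved with depth. At 2000 UMIs and without thinning, Il2rb was found in 79.4% and 91.1% of T-gated and 94.4% and 91.5% of NK-gated cells, Il1b in 38.5% and 39.5% of macrophage-gated cells and Tnfrsf12a in 33.3% and 85.2% of hepatoma-gated cells. Il1b was found in 55.6% of the 27 neutrophil-gated cells with 2000 UMIs, and without thinning in 51.2% of dendritic-gated cells, and Il6 in 33.8% of fibroblast-gated cells. Few cells limit NK-gated, monocyte-gated and sub-gated values most. No paired analysis was possible because no column carries a labelled replicate number or could be tied to a labelled group. Cell classes of the same set are given side by side in the results.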

Other observations

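Cells gated as mast cells or basophils, outside the 8 classes, numbered 59 over all sets and 1 in set 1, so only mean values can be given. Their means over all sets were 2.43 for Il1rl1, 1.53 for Osm, 1.13 for Csf2rb, 1.00 for Il2rg, 0.94 for Lif, 0.75 for Il4 and 0.68 for Csf2rb2. Plasmacytoid dendritic-gated cells, 101 over all sets, had means of 0.85 for Csf2rb and 0.83 for Csf2rb2. B or plasma-gated cells, 95 over all sets, had 0.84 for Il2rg and 0.35 for Tnfrsf13c.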
